A study of Mus musculus with 25 samples.

Results

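A set of 8 genes for transcription factors was followed in matured mouse oocytes, 2-cell embryos and morulae. It holds the Krüppel-like factors Klf2, Klf3, Klf4, Klf5, Klf6, Klf9 and Klf17 and the orphan nuclear receptor Nr5a2. The genes were chosen by name, with earlier results of these data known. All 8 were found by Ensembl identifier in both expression tables, which together hold 35561 genes. Libraries of C57BL/6 material were made by Smart-seq2, which turns the RNA of single or few cells into full-length cDNA. The 25 libraries form 6 groups: oocytes matured in vitro for 16 h to metaphase II (MII) with PBS (n = 4) or with VCD (n = 5), embryos at the 2-cell stage with PBS (n = 4) or VCD (n = 4), and morulae with PBS (n = 4) or VCD (n = 4). PBS is a buffered salt solution and VCD is the label of a small molecule put into the culture medium, whose full name and dose the sources used here do not state. Embryos of both agents came from in vitro fertilization. Whether the libraries of a group are separate animals or cultures, and how many oocytes or embryos each holds, is likewise not stated. A p-value here therefore covers the spread from library to library, which may be technical.

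Krüppel-like factors share a set of zinc fingers at the carboxyl end that recognise GC-rich DNA and the CACCC box, and differ in the rest of the protein, which recruits coactivators or corepressors. Klf2, Klf4 and Klf5 are known for sustaining self-renewal of mouse embryonic stem cells, and Klf5 also for formation of the blastocyst. Nr5a2 binds extended AGGTCA sites as a monomer and is known in early mouse embryos as an activator of embryonic genes.

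Values are FPKM, read numbers divided by transcript length and library total, and are therefore per length and comparable between genes. Between 15075832 and 20998296 reads or fragments per library were implied by the steps of the values, so that 1 read in a gene of 1 kb was worth 0.0476 to 0.0663 FPKM. Oocytes and embryos were in separate tables and were not tested against each other. In the labelled oocytes the 6 oocyte markers summed to between 5570 and 7754 FPKM. In the labelled morulae the 6 morula markers summed to between 618.6 and 879.5 FPKM, against 44.7 to 61.0 in 2-cell embryos. The 5 measured sperm markers stayed at 2.15 FPKM or less in sum in every embryo library. The 16 cumulus and granulosa markers of the oocyte table summed to 11.3 to 15.3 FPKM in oocytes, and 2 of the 16 reached a mean of 1 FPKM. These were Cyp19a1 (8.85 ± 0.845 FPKM with PBS, SD, n = 4, and 8.35 ± 0.916 FPKM with VCD, n = 5) and Kitl (3.16 ± 0.178 and 3.52 ± 0.209 FPKM). Amhr2 was at 0 in all 4 PBS libraries, and Ptx3 and Areg were at 0 in all 5 VCD libraries. The part of these cells in the members' levels was not tested.

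The 8 genes were sorted into 3 patterns by direction and level. Klf17 was highest in oocytes and lower at each later stage. Klf2, Klf4, Klf5, Klf9 and Nr5a2 were highest in morulae, with means above 5 FPKM there. Klf3 and Klf6 also had their highest mean in PBS morulae, but stayed at 1.26 and 4.71 FPKM or less in every library. Klf17 lies at chr4:117757836-117765648 on the minus strand of GRCm38, Klf4 at chr4:55527143-55532466 on the minus strand, and Nr5a2 at chr1:136842571-136960448 on the minus strand. On the plus strand lie Klf2 at chr8:72319033-72321656, Klf3 at chr5:64803388-64832901, Klf5 at chr14:99298691-99315036, Klf6 at chr13:5861482-5870394 and Klf9 at chr19:23141226-23168134. All 8 are annotated as protein coding, and their values are sums over exons.

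The promoter of the only falling member, Klf17, is shown beside those of 2 rising members, Klf9 and Klf4, because CACCC is the letter string that the family itself recognises. Each window holds 250 bases before and 50 after the annotated start (RefSeq, GRCm38.p6), is written 5′ to 3′ on the strand of the gene, and has each CACCC or its reverse complement GGGTG in capitals.
Klf17, chr4:117765617-117765916, minus strand: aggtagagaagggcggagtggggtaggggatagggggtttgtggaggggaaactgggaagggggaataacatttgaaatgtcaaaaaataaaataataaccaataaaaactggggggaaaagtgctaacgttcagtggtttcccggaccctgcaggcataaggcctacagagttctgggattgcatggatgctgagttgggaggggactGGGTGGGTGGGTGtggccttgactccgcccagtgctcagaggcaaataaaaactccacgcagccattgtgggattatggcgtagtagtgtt
Klf9, chr19:23140976-23141275, plus strand: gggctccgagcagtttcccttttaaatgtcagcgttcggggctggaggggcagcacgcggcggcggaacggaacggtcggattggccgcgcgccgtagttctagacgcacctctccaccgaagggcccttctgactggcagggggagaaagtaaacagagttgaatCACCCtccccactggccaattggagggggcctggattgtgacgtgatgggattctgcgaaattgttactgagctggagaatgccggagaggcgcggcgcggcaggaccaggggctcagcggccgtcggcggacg
Klf4, chr4:55532426-55532725, minus strand: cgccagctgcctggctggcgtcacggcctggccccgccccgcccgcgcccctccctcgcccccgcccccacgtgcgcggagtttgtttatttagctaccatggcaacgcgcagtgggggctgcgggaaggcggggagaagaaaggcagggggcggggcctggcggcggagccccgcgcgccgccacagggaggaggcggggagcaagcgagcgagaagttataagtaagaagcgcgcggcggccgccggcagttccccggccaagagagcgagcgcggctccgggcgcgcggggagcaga
Klf17 held 3 matches in 1 run of 13 bases, starting 41, 37 and 33 bases before the start, and the last of them was also the reverse of the longer CCACACCC. Klf9 held 1 match and Klf4 none. Across 32851 promoter windows of the same length, 57.5% held at least 1 CACCC on either strand, 9.35% held 3 or more, and 3.56% held CCACACCC, so a single match is common. Of the other members, the table has windows for Klf3 (5 matches), Klf2 (1), Klf6 (0) and a pair for Nr5a2 (0 and 3). For the Nr5a2 site, neither AAGGTCA, present in 4.72% of windows, nor its longer form CAAGGTCA, in 1.56%, was found in a member's window. The GC content was 50.7% for Klf17 and 42% and 49% for the windows of Nr5a2, below the 52.7% median of all windows, and 63% to 76.7% for Klf2, Klf3, Klf4, Klf6 and Klf9.

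**Figure D1:**
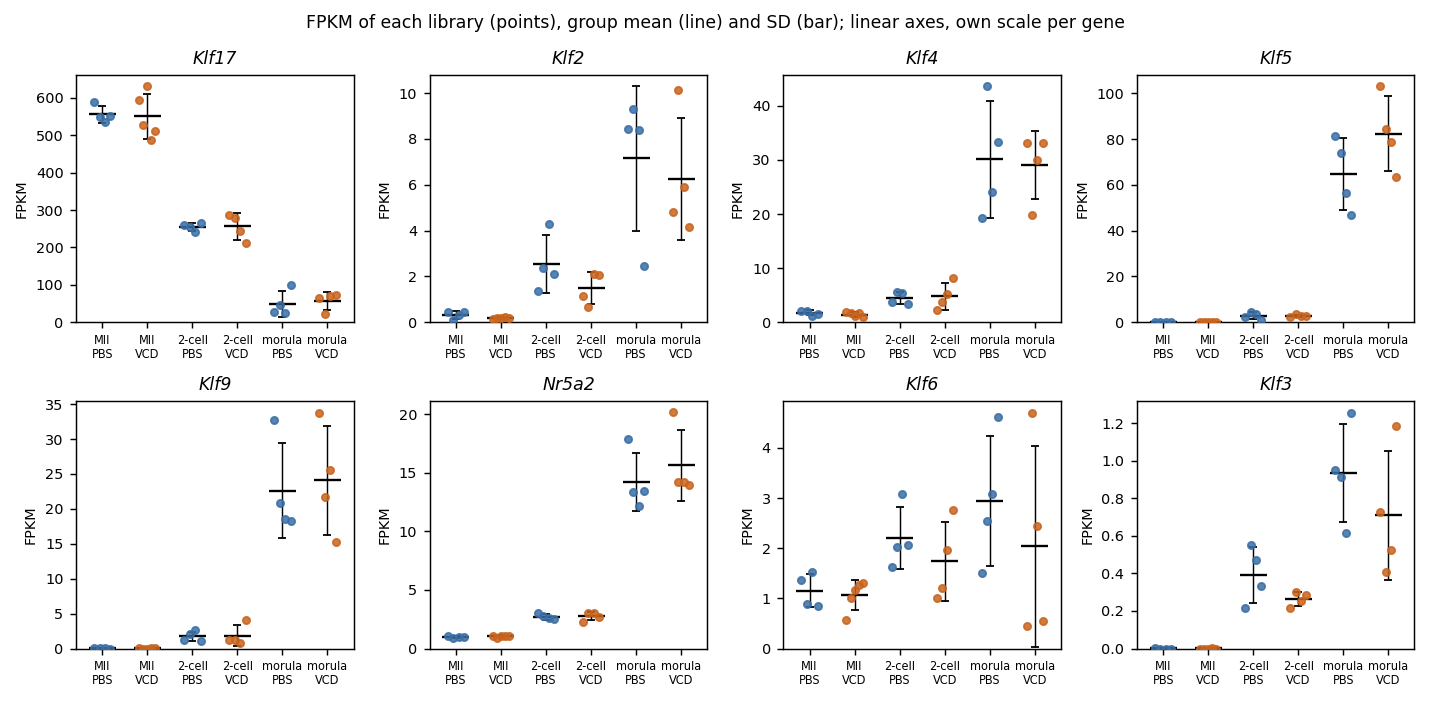
FPKM (y axes, linear, a separate scale for each gene) of the 8 genes in the 6 groups (x axes). Points are libraries, blue for PBS and orange for VCD, lines are group means and bars are SDs; Klf17 falls from means above 550 in oocytes to below 57 in morulae, while Klf5 and Klf9 are near 0 in oocytes and are highest in morulae.

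Klf17, a family member known for expression in germ cells, was the most abundant of the 8 in oocytes and in 2-cell embryos. In MII oocytes it measured 589, 548, 536 and 551 FPKM in the 4 PBS libraries and 594, 527, 631, 488 and 512 FPKM in the 5 VCD libraries. The other 7 genes lay at 2.13 FPKM or less in every oocyte library. In 2-cell embryos Klf17 measured 259.7, 253, 239.96 and 264 FPKM with PBS and 288, 279.9, 245 and 212 FPKM with VCD. No 2-cell library reached the lowest oocyte library, and the fall from oocyte to 2-cell embryo is given with no test because the stages are in separate tables. FPKM divides by the library total, so less Klf17 RNA and more RNA of other genes cannot be told apart. In libraries of whole morulae, fewer cells of a type and less RNA per cell cannot be told apart either.

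In morulae Klf17 measured 27.2, 45.2, 24.1 and 98.7 FPKM with PBS and 63.7, 20.9, 71.2 and 71.7 FPKM with VCD. All 8 morula libraries lay below all 8 libraries of 2-cell embryos, and they spread more widely, from 20.9 to 98.7 FPKM. On the log2(FPKM + 1) scale, used for all differences below, Klf17 fell by 2.59 ± 0.36 (SE) from 2-cell embryos to morulae with PBS (limma across all genes, adjusted p = 4.68e-05) and by 2.29 ± 0.35 with VCD (limma, adjusted p = 9.27e-05). The morula mean was 0.192 times the 2-cell mean with PBS and 0.222 times with VCD. Of the 50-base words of the Klf17 transcripts, 9.32% also occur in transcripts of other annotated genes. The gene sharing the most of them was Gm20690, which reached at most 0.334 FPKM in any embryo library.

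Klf5, needed for the blastocyst, had the largest rise of the 8. It was almost absent from oocytes, with 12 reads over the 9 libraries and at most 0.0411 FPKM. In 2-cell embryos it measured 2.18, 4.48, 3.58 and 1.10 FPKM with PBS and 2.35, 3.47, 2.81 and 2.62 FPKM with VCD. In morulae it measured 81.3, 73.8, 56.3 and 46.9 FPKM with PBS and 103, 84.3, 78.7 and 63.5 FPKM with VCD. The stages did not overlap, and the mean rose 22.8-fold with PBS and 29.3-fold with VCD. The log2 differences were 4.15 ± 0.29 (SE) and 4.44 ± 0.19, with limma adjusted p = 1.66e-07 and 4.28e-09.

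Klf9, a factor inducible by glucocorticoid and thyroid hormones, followed the same order of stages. It had 15 reads over the 9 oocyte libraries. In 2-cell embryos it measured 1.17, 2.04, 2.59 and 1.13 FPKM with PBS and 1.22, 1.18, 0.846 and 4.10 FPKM with VCD. In morulae it measured 32.7, 20.8, 18.6 and 18.3 FPKM with PBS and 33.8, 21.8, 25.5 and 15.2 FPKM with VCD. The stages did not overlap, although replicate d of the VCD 2-cell embryos stood above the other 7 libraries of that stage. The rise was 13.1-fold in the mean with either agent, or 3.11 ± 0.23 (SE) on the log2 scale with PBS (limma, adjusted p = 2.68e-07) and 3.22 ± 0.34 with VCD (limma, adjusted p = 4.31e-06). A microRNA gene, Mir1192, lies within an intron of Klf9 and shares no exon with it.

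Klf4, one of the factors that reprogram somatic cells to pluripotency, had the second highest mean of the 8 in 2-cell embryos. It already had 1.18 to 2.13 FPKM in PBS oocytes and 0.921 to 1.82 FPKM in VCD oocytes. In 2-cell embryos it measured 3.70, 5.62, 5.42 and 3.42 FPKM with PBS and 2.18, 3.72, 5.15 and 8.10 FPKM with VCD. In morulae it measured 19.3, 43.7, 24.1 and 33.4 FPKM with PBS and 33.1, 19.8, 30.1 and 33.1 FPKM with VCD. All morula libraries lay above all 2-cell libraries, and the log2 difference was 2.45 with both agents (SE 0.25 and 0.31; limma, adjusted p = 3.50e-06 with PBS and 1.90e-05 with VCD).

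Nr5a2 had the smallest coefficient of variation of the 5 rising genes in each of the 6 groups. Its 9 oocyte libraries lay between 0.914 and 1.09 FPKM. In 2-cell embryos it measured 3.07, 2.78, 2.57 and 2.48 FPKM with PBS and 2.28, 3.05, 3.01 and 2.67 FPKM with VCD. In morulae it measured 17.9, 13.3, 12.2 and 13.5 FPKM with PBS and 20.2, 14.2, 14.2 and 13.9 FPKM with VCD. The 3 ranges did not overlap, and from 2-cell embryos to morulae the mean rose 5.21-fold with PBS (log2 difference 2.02 ± 0.15, SE; limma, adjusted p = 2.11e-07) and 5.67-fold with VCD (2.13 ± 0.18; limma, adjusted p = 6.84e-07). In both agents the highest morula library was replicate 1, as it also was for Klf5 and Klf9.

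Klf2, known in embryonic stem cells and in blood vessel endothelium, had the smallest rise that passed the test. It lay below 0.44 FPKM in every oocyte library. In 2-cell embryos it measured 1.34, 2.38, 4.30 and 2.09 FPKM with PBS and 1.15, 0.651, 2.10 and 2.05 FPKM with VCD. In morulae it measured 8.43, 9.30, 8.40 and 2.46 FPKM with PBS and 4.83, 10.1, 5.91 and 4.16 FPKM with VCD. With PBS the stages overlapped, because morula replicate 4 lay within the 2-cell range; with VCD they did not. The log2 rise was 1.15 ± 0.36 (SE) with PBS (limma, adjusted p = 0.0114) and 1.53 ± 0.28 with VCD (limma, adjusted p = 0.000417), and without morula PBS replicate 4 it was 1.52 (limma, adjusted p = 0.000226).

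Klf6, a widely expressed early-response gene, showed no stage difference that passed the test. It lay between 0.568 and 1.52 FPKM in oocytes and between 1.012 and 3.09 FPKM in 2-cell embryos. In morulae it measured 1.497, 2.55, 3.09 and 4.61 FPKM with PBS and 0.448, 4.71, 2.44 and 0.550 FPKM with VCD, so that the morula libraries reached both below and above the 2-cell range. The log2 difference was 0.26 (95% confidence interval −0.27 to 0.79; limma, adjusted p = 0.324) with PBS and −0.04 (−0.95 to 0.87; limma, adjusted p = 0.925) with VCD. With quantile normalization the PBS difference became 0.58 and passed (limma, adjusted p = 0.0286).

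Klf3, which represses transcription by recruiting the corepressor CtBP, was below the minimum of 1 FPKM in 4 libraries that a gene needed for the test. It had 2 reads over the 9 oocyte libraries. It measured 0.215 to 0.553 FPKM in 2-cell embryos with PBS and 0.218 to 0.300 FPKM with VCD, and 0.617 to 1.26 FPKM and 0.407 to 1.19 FPKM in morulae. Within each agent the 2 stages did not overlap, and the mean rose 2.38-fold with PBS and 2.69-fold with VCD. With no minimum the log2 difference between stages was 0.47 ± 0.14 (SE) with PBS (limma, adjusted p = 0.0241) and 0.42 ± 0.15 with VCD (limma, adjusted p = 0.0534). With limma-voom on the recovered reads, which adds no 1 FPKM to each value, it was 1.267 ± 0.356 (adjusted p = 0.00686) and 1.3003 ± 0.419 (adjusted p = 0.0143). The antisense gene Gm20033 shares exon sequence with Klf3 and reached 0.772 FPKM in embryos. Whether counting used strand is not stated, so reads of the pair cannot be told apart.

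**Figure D2:**
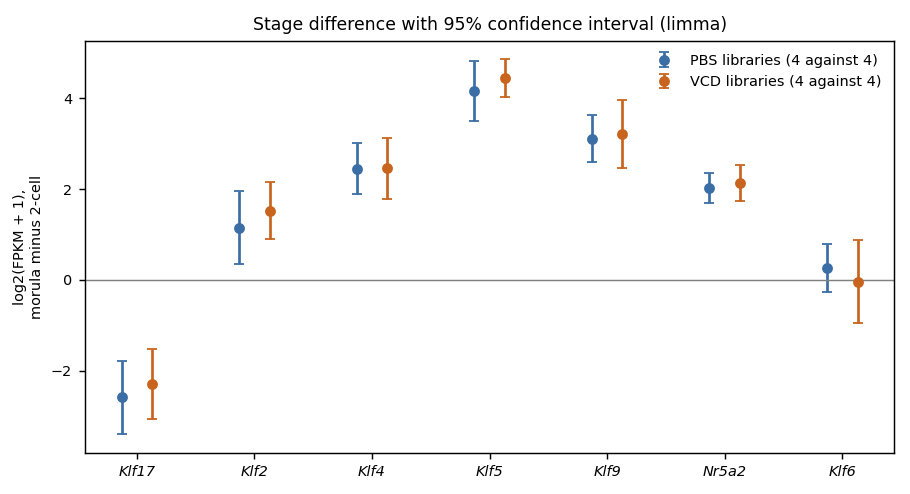
Difference between morulae and 2-cell embryos in log2(FPKM + 1) (y axis) for the 7 genes that passed the minimum (x axis), with 95% confidence intervals from limma, blue for PBS and orange for VCD (4 against 4 libraries each). Klf5 lies highest at 4.15 and 4.44, Klf17 lies below 0 at −2.59 and −2.29, and the intervals of Klf6 span 0.

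Read as counts, these calls are near the background of the 2 stages. Of the 7 members tested, 6 passed with either agent, beside 87.7% of genes with PBS and 84.8% with VCD. With PBS, 5 of the 7 members tested rose, beside 42.7% of all 12517 genes tested, and 1 fell, beside 45.0%. With VCD, again 5 of 7 rose and 1 fell, beside 41.0% and 43.9% of 12355 genes. These shares rest on the minimum, since a gene present at only 1 stage no longer reaches 4 libraries once any library of that stage is left out. Without any 1 library of 2-cell embryos, 2778 to 2823 genes were lower with PBS and 2729 to 2773 with VCD, against 5635 and 5419 with all libraries. The sizes place the members better than the calls do. With PBS, 2.89% of tested genes had a log2 difference at least as high as Klf5, 7.59% as high as Klf9, 13.01% as high as Klf4, 18.1% as high as Nr5a2 and 31.7% as high as Klf2, and 14.7% had one at least as low as Klf17. The median difference of all genes was −0.08, and median-of-ratios scaling moved it to −0.44. Under that scaling the PBS differences were 3.84 for Klf5, 2.81 for Klf9, 2.12 for Klf4, 1.71 for Nr5a2, 0.87 for Klf2 and −2.94 for Klf17, and all 6 still passed.

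The 2 agents were set against each other at each stage to see whether the molecule in the medium moved these genes. No member passed at any stage: 0 of 4 tested in MII oocytes (beside 0.0115% of all genes), 0 of 7 in 2-cell embryos (beside 0%, or 0 of 11369 genes) and 0 of 7 in morulae (beside 0.0100%). Limma adjusted p was 0.999 for all 4 genes in oocytes and at least 0.999 for all 7 in either embryo stage. At an unadjusted p below 0.05 limma had 245, 391 and 311 genes of the 3 stages, and no member was among them. limma-voom on recovered reads called 0 genes at each stage, with 403, 554 and 392 below an unadjusted 0.05.

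The intervals show what these numbers of libraries could resolve. Klf17 was held most closely, at −0.02 on the log2 scale in oocytes (95% confidence interval −0.199 to 0.16) and at 0.0003 in 2-cell embryos (−0.26 to 0.26), but in morulae its difference was 0.297 with an interval from −0.75 to 1.35. Nr5a2 differed by 0.04 (−0.15 to 0.22) in oocytes, 0.01 (−0.29 to 0.30) in 2-cell embryos and 0.13 (−0.31 to 0.56) in morulae. Klf4 differed by −0.18 (−0.52 to 0.15), −0.02 (−0.66 to 0.63) and −0.01 (−0.599 to 0.57) in the 3 stages.

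The largest differences between agents were those of Klf6 in morulae, Klf2 in 2-cell embryos and Klf5 in morulae. Klf6 differed by −0.55 (−1.499 to 0.395) in morulae, with VCD replicates 1 and 4 below every PBS library and VCD replicate 2 above every one. It was −0.934 without VCD replicate 2 and −0.275 without VCD replicate 1. Klf2 differed by −0.49 (−1.10 to 0.13) in 2-cell embryos, where the 2 groups overlapped, and by −0.271 without PBS replicate c. Klf5 differed by 0.36 (−0.12 to 0.83) in morulae, with means of 64.6 ± 15.8 FPKM (SD, n = 4) with PBS and 82.4 ± 16.4 FPKM (n = 4) with VCD. The VCD effect in morulae minus that in 2-cell embryos, tested as an interaction, passed for 0 of 7 members and 0% of all 14144 genes (limma, smallest member adjusted p = 0.999; 502 genes below an unadjusted 0.05, and 811 with limma-voom). These differences were in log2(FPKM + 1), which compresses changes of genes near 1 FPKM.

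**Figure D3:**
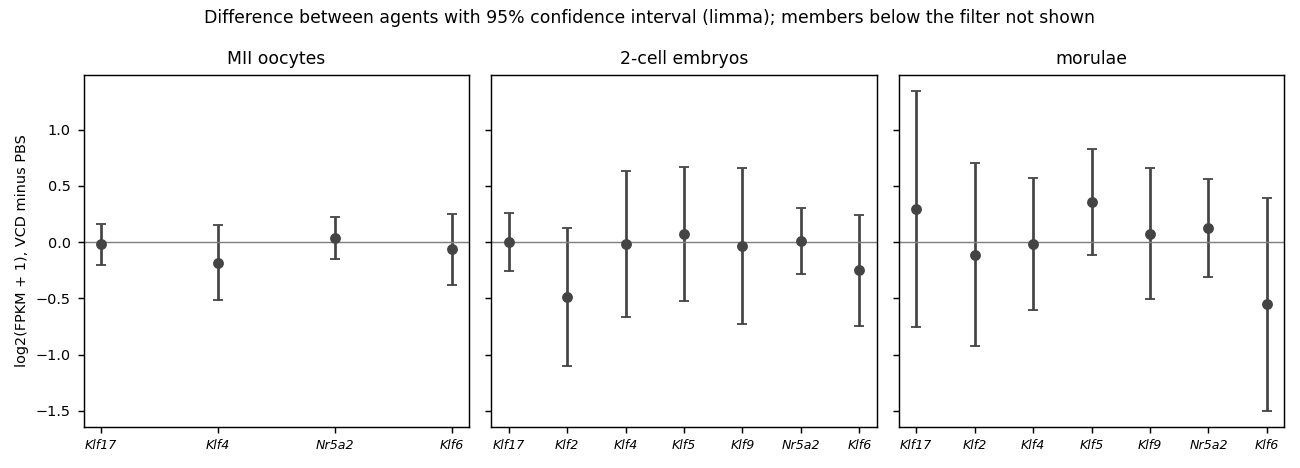
Difference between VCD and PBS in log2(FPKM + 1) (y axis, shared) with 95% confidence intervals from limma, in MII oocytes (5 against 4 libraries), 2-cell embryos and morulae (4 against 4 each); genes are on the x axes and those below the minimum are not shown. Every interval spans 0, and the widest are those of Klf17 and Klf6 in morulae.

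By group means, the Krüppel-like gene with the largest share was Klf17 in oocytes and 2-cell embryos and Klf5 in morulae. In morulae Klf17 was still above Klf5 in PBS replicate 4 (98.7 against 46.9 FPKM) and in VCD replicate 4 (71.7 against 63.5 FPKM). The 15 Klf genes of the oocyte table summed to 629.7 ± 26.4 FPKM (SD, n = 4) in PBS oocytes, and Klf17 made up 88.3% of that sum. The 17 Klf genes of the embryo table summed to 354 ± 4.51 FPKM in PBS 2-cell embryos, with Klf17 at 71.9% and Klf11, a TGF-beta inducible repressor, at 15.1%. In PBS morulae they summed to 250.3 ± 47.2 FPKM, and the largest shares were Klf5 at 26.7%, Klf17 at 18.3%, Klf10 at 17.0%, Klf4 at 12.01% and Klf9 at 9.30%. With VCD the shares of Klf17 were 88.9%, 71.6% and 18.7% in the same order, and Klf5 held 28.3% and Klf10 19.6% in morulae.

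Of the other Klf genes, 6 were tested between stages with PBS. Of these, 3 rose and 2 fell, beside 42.7% and 45.0% of all genes tested, and 1 did not pass. Their median log2 difference was 0.32 beside −0.08 for all genes. Klf7 fell from 11.2 ± 1.66 to 0.11 ± 0.0685 FPKM (SD, n = 4 each; log2 difference −3.45, limma adjusted p = 1.87e-09), and Klf11 from 53.4 ± 3.998 to 16.5 ± 3.44 FPKM (−1.65, limma adjusted p = 1.70e-06). Klf8, Klf10 and Klf13 rose, Klf10 from 13.7 ± 1.60 to 42.95 ± 13.5 FPKM (1.54, limma adjusted p = 2.20e-05). Klf17, Klf7 and Klf11 were thus the tested genes of the family that fell, and Klf16 was the tested gene beside Klf6 that did not pass. Klf7 lay at 0.199 FPKM or less in PBS morulae, and Klf8 at 0.721 FPKM or less in PBS 2-cell embryos. Each therefore entered the test through 1 stage only, which fixed its direction.

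**Figure D4:**
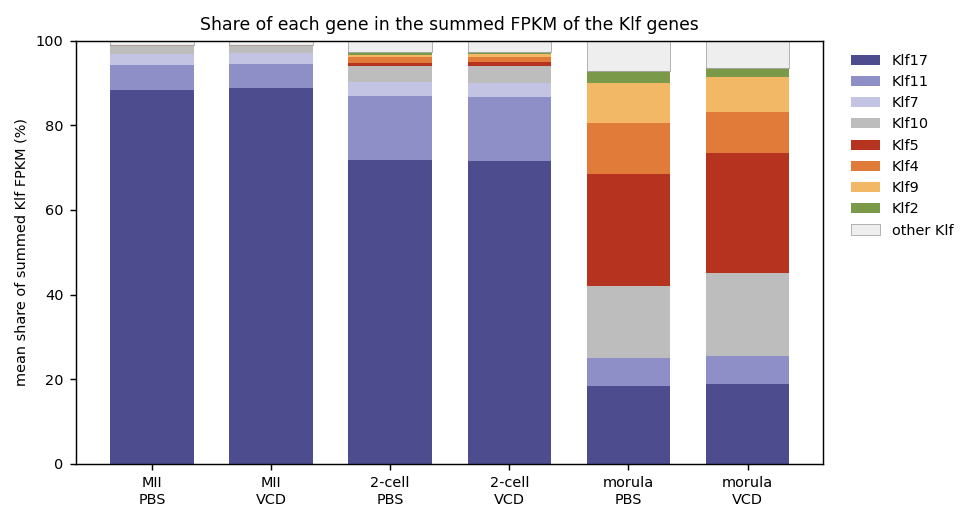
Mean share (y axis, percent, stacked from 0 to 100) of each gene in the summed FPKM of the Klf genes, for the 6 groups (x axis), with Klf genes of smaller share pooled as other Klf. Klf17 takes 88.3% in PBS oocytes, 71.9% in PBS 2-cell embryos and 18.3% in PBS morulae, and in morulae Klf10 stands below Klf17 with PBS (17.0%) and above it with VCD (19.6% against 18.7%).

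Genes that work with these factors were counted from lists by function. Beside the counts of every list below, 42.7% of all 12517 genes tested rose with PBS and 45.0% fell (median −0.08). No list was tested as a set, and the lists were chosen with earlier results of these data known. A gene below 1 FPKM in all libraries of 1 stage could enter only through the other stage, which fixed its direction. The Sp factors, the closest relatives of the Klf family, had 5 members tested with PBS, of which 1 rose and 2 fell (median −0.08): Sp3 rose from 2.14 ± 0.139 to 5.23 ± 0.798 FPKM (SD, n = 4 each) and Sp4 fell from 1.22 ± 0.156 to 0.349 ± 0.166 FPKM. Of 14 tested cofactors and ubiquitin ligases of Klf proteins, 5 rose and 7 fell (median −0.14). Among them Hdac1, a histone deacetylase, rose from 12.3 ± 1.42 to 151.9 ± 20.1 FPKM, and Sin3a, the scaffold of a corepressor complex, fell from 79.7 ± 5.28 to 6.42 ± 1.57 FPKM. Limma adjusted p for these 4 genes lay between 1.75e-09 for Hdac1 and 0.000112 for Sp4.

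Of 13 tested nuclear receptors and coregulators listed around Nr5a2, 6 rose and 6 fell (median 0.17). Ddx20, an RNA helicase that binds nuclear receptors of the Nr5a group, rose from 4.54 ± 1.03 to 45.4 ± 14.1 FPKM (SD, n = 4 each; limma adjusted p = 1.62e-07), and the orphan receptor Esrrg fell from 5.85 ± 1.11 to 0.0193 ± 0.0292 FPKM (limma adjusted p = 1.15e-08). Of 12 tested early lineage and pluripotency factors, 11 rose and none fell (median 2.39). Of the 15 listed, 8 had a mean of 1 FPKM or more in PBS 2-cell embryos and 12 in PBS morulae. Tead4, which directs trophectoderm formation, rose from 0.0971 ± 0.0551 to 46.2 ± 6.35 FPKM, and Nanog from 0.139 ± 0.124 to 23.1 ± 6.37 FPKM, with limma adjusted p of 1.27e-10 and 5.19e-09. Both entered the test only through the morula libraries, so they could only rise. Klf2, Klf4, Klf5, Klf9 and Nr5a2 rose between the same 2 stages, as did 42.7% of all genes tested with PBS. A link between these members and the lineage genes was not tested.

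Of 11 tested immediate early genes, the class to which Klf2, Klf4 and Klf6 can belong, 5 rose and 3 fell with PBS (median −0.02). Myc rose from 2.56 ± 1.28 to 50.9 ± 9.63 FPKM (SD, n = 4 each) and Egr1 fell from 8.07 ± 1.55 to 0.398 ± 0.372 FPKM (limma adjusted p = 6.54e-08 and 2.26e-07). All 5 tested 2-cell markers fell, among them Zscan4d from 294.9 ± 15.2 to 0.747 ± 0.879 FPKM and Zscan4c from 106.9 ± 7.68 to 0.0116 ± 0.0233 FPKM. Of 6 oocyte markers 5 fell, with Bmp15 going from 1562 ± 202 to 0.908 ± 0.0739 FPKM and Zp2 from 60.6 ± 7.61 to 0.809 ± 0.32 FPKM. All 6 morula markers rose, Krt18 from 3.85 ± 0.602 to 91.7 ± 17.2 FPKM and Tdgf1 from 0.271 ± 0.118 to 68.9 ± 22.2 FPKM. Limma adjusted p was at most 1.91e-09 for these 6 markers. They were listed for being high at 1 stage, so their directions follow from that choice. Zscan4c and Bmp15, at most 0.0466 and 0.987 FPKM in PBS morulae, entered the test only through the 2-cell libraries. Of the 3 cumulus and granulosa markers tested between stages, Amhr2 rose from 1.47 ± 0.455 to 11.4 ± 2.61 FPKM and 2 fell, Cyp19a1 from 2.65 ± 0.457 to 0.00586 ± 0.0117 FPKM (limma adjusted p = 8.16e-07 and 4.18e-08).

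The genes whose profile over the 6 groups was most like each member were sought among 8581 genes, with each group mean taken as a share of the highest and likeness as the mean absolute difference over the groups. Nearest to Klf17 was the ubiquitin ligase gene Pja2 (difference 0.0101), with 10.5, 4.95 and 1.04 FPKM in PBS oocytes, 2-cell embryos and morulae, and then Zfp120 (0.0141). Nearest to Klf4 were Wdr73 (0.00434) and Rfc2 (0.00491), and nearest to Klf9 were AI506816 (0.00464) and Dcaf13 (0.00466). Nearest to Klf5 were Eif3f (0.00329) and Rps19 (0.00428), genes of translation for which reads may be shared with related copies. Nearest to Klf2 were Emc2 (0.0193) and Zfp950 (0.0214), and nearest to Nr5a2 were Bach1 (0.00771) and Nom1 (0.0095). With 6 points and many genes compared, close profiles are common.

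Within a stage some pairs of members varied in opposite directions from library to library, and other pairs varied together. In 2-cell embryos the libraries with the least Klf17 had the most Klf4: VCD replicate d had 212 FPKM of Klf17 and 8.10 FPKM of Klf4, and VCD replicate a had 288 and 2.18 FPKM. Over the 8 libraries Pearson's r of log2(FPKM + 1) was −0.927 (exact permutation p = 0.00164) and Spearman's rho −0.857 (exact permutation p = 0.0107), and r was −0.778 without the 2 libraries farthest from the median of Klf4. The same pair went the other way in morulae, with r = 0.727 (exact permutation p = 0.0467) and rho = 0.667 (exact permutation p = 0.0831). There r was 0.401 without the 2 libraries farthest from the median of Klf4. In morulae the 4 libraries with the least Klf17, between 20.9 and 45.2 FPKM, were the 4 with the most Klf2, between 8.40 and 10.1 FPKM, and the other 4 had 63.7 to 98.7 FPKM of Klf17 and 2.46 to 5.91 FPKM of Klf2. Pearson's r was −0.878 (exact permutation p = 0.00494) and Spearman's rho −0.881 (exact permutation p = 0.00724), and r was −0.812 without the 2 libraries farthest from the median of Klf2. Over all 56 pairs of members in the 2 stages, 11 had an exact permutation p below 0.05 and 0 passed after Benjamini-Hochberg adjustment (smallest adjusted p = 0.084). Among the 11 were pairs with a positive r, such as Klf2 with Klf6 in 2-cell embryos (0.874, exact permutation p = 0.00474). Klf9 with Nr5a2 in morulae had 0.850 (exact permutation p = 0.0089), and 0.309 without the 2 libraries farthest from the median of Klf9. All pairs share the library totals that FPKM divides by.

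**Figure D5:**
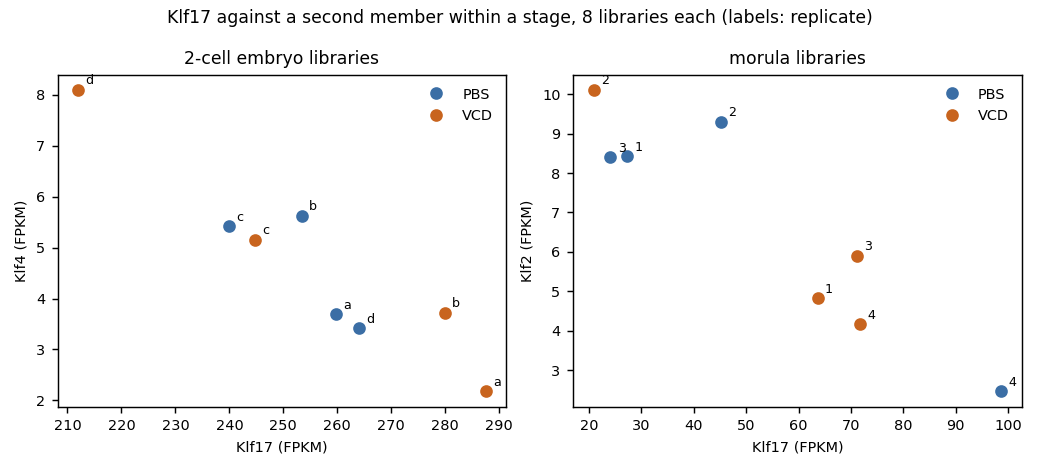
FPKM of Klf17 (x axes) against FPKM of Klf4 in the 8 libraries of 2-cell embryos and against FPKM of Klf2 in the 8 libraries of morulae (y axes); axes do not start at 0, points are libraries labelled by replicate, blue for PBS and orange for VCD. Libraries of both agents lie along the same descending order, from VCD replicate d to VCD replicate a in 2-cell embryos and from VCD replicate 2 to PBS replicate 4 in morulae.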

How the data were processed

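The submitters' processing notes list TopHat2 2.0.12 and Bowtie2 2.2.3, and name the chicken build galGal4, although all identifiers in the tables are mouse Ensembl identifiers. No source used here names the counting tool or the annotation. The authors deposited 2 tables, whose values were taken as FPKM from their steps, since the headers name no unit; 1 holds 25158 genes in oocytes and 1 holds 34228 genes in embryos. Symbols, positions and exon lengths came from GENCODE M21 (GRCm38), which gave 25073 and 34065 symbols. FPKM multiplied by exon length gave whole reads (within 0.01) for 90.6% to 93.4% of the values under 200 reads. These recovered reads served for depth and limma-voom only; amplified cDNA has no molecular identifiers, so reads are not independent molecules.

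Differences were tested with limma 3.58.1 in R 4.3.3 on log2(FPKM + 1) with a variance trend, over genes that reached 1 FPKM in 4 or more of the libraries compared, two-sided, at a Benjamini-Hochberg adjusted p below 0.05 over all genes tested. A pseudocount shrinks differences of low genes, and FPKM lets a few abundant genes shift all others. Correlations were computed in Python 3.11.15. The fit was tested on simulated data. Named genes were the 8 members, the 2 genes of smallest unadjusted p between stages with PBS in each list, and the 2 most alike profiles of each member at 5 FPKM or more. The members and lists were chosen with earlier results of these data known, and family shares, member pairs, the 4 letter strings searched in promoters, the shared words, the values of Klf3 with no minimum and with limma-voom, and the values of Klf8, Klf10, Klf13 and Klf16 were chosen after values were seen.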

Additional observations from a re-analysis of the deposited data

Results flagged for a closer look

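In 48 sets of values (8 genes in 6 groups), 1 library stood apart from the rest of its group in 7, where the gap to its neighbour as a share of the group's range passed Dixon's limit. Chance gives about 1 in 20 sets. Klf2 was lowest in morula PBS replicate 4, at 2.46 FPKM beside 8.40 to 9.30 FPKM. Klf17 was lowest in morula VCD replicate 2, at 20.9 FPKM beside 63.7 to 71.7 FPKM. Klf9 was highest in replicate d of the VCD 2-cell embryos, at 4.10 FPKM beside 0.846 to 1.22 FPKM. Nr5a2 was highest in morula VCD replicate 1, at 20.2 FPKM beside 13.9 to 14.2 FPKM, and lowest in MII VCD replicate 2, at 0.914 FPKM beside 1.06 to 1.09 FPKM. Klf3 was at 0.00513 FPKM in MII PBS replicate 1 and at 0.00449 FPKM in MII VCD replicate 4, 1 read each, with the other oocyte libraries at 0. With all others at 0 the gap equals the range, so the Klf3 flags follow from the zeros and the chance rate does not apply to them. None of these libraries stood apart in more than 1 gene.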

How the results depend on the processing

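Alternatives were a pseudocount of 0.1, no minimum, a minimum of 5 FPKM, median-of-ratios scaling, quantile normalization, array weights, limma-voom on recovered reads, leaving out each library, all 4 embryo groups in 1 fit, and the replicate block. The number of members that passed stayed at 0 for every comparison of agents and between 5 and 7 for the 2 stage comparisons, 5 being all those above 5 FPKM. The seventh was Klf3 with no minimum (PBS) and with limma-voom (both agents), and Klf6 with quantile normalization (PBS). The 6 members that passed between stages kept their direction and call under each alternative that tested them. Directions turned only for members that did not pass. In VCD against PBS these were Klf17 in oocytes (0.00427 with the replicate block) and in 2-cell embryos (−0.0224 with median-of-ratios scaling, −0.000305 with limma-voom), Nr5a2 in 2-cell embryos (−0.00684 with median-of-ratios scaling, −0.00207 with quantile normalization) and Klf4 in morulae (0.0234 with array weights). Between stages with VCD it was Klf6 (0.426 with quantile normalization). The cause was not tested. Of all genes between stages with PBS, 6860 were higher and 8863 lower with no minimum, and 3449 and 3233 with a minimum of 5 FPKM, against 5343 and 5635; with VCD these were 6373 and 8287, and 3338 and 3106, against 5060 and 5419.

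Leaving out 1 library at a time gave ranges that span 0 for these members. In oocytes these were −0.133 to 0.0314 for Klf6 and −0.0712 to 0.0212 for Klf17. In 2-cell embryos they were −0.27 to 0.236 for Klf4, −0.185 to 0.276 for Klf5, −0.36 to 0.128 for Klf9, −0.0587 to 0.0873 for Klf17 and −0.0294 to 0.0716 for Nr5a2. In morulae they were −0.485 to 0.0397 for Klf2, −0.198 to 0.182 for Klf4 and −0.101 to 0.266 for Klf9. Ranges that do not span 0 included −0.664 to −0.271 for Klf2 in 2-cell embryos and, in morulae, −0.934 to −0.275 for Klf6, 0.218 to 0.478 for Klf5 and 0.0429 (without PBS replicate 3) to 0.715 (without VCD replicate 2) for Klf17. Between stages with VCD Klf6 ranged from −0.425 to 0.234. For the interaction the ranges spanning 0 were −0.25 to 0.257 for Klf4, −0.0655 to 0.434 for Klf9 and −0.00505 to 0.225 for Nr5a2.

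Libraries of the same replicate number did not deviate together at every number (r across genes from −0.325 to −0.109 in oocytes, −0.152 to 0.163 in 2-cell embryos and −0.0505 to 0.378 in morulae), so the numbers were not taken to pair them. For morula PBS replicates 1 and 4 (r = 0.326 and 0.378) the VCD library most like it did bear the same number. The same held for 2-cell PBS replicate a (0.163), and for no other library. With the replicate block 0 members passed in each of the 3 comparisons of agents, and 0, 1 and 1 of all genes did; in oocytes VCD replicate 5 has no partner and drops out. Depth limits Klf3, Klf5 and Klf9 in oocytes, at 2, 12 and 15 reads over 9 libraries.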
